A study of Mus musculus with 6 samples.

Results

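The constitutive proteasome subunit genes were the genes whose symbol is Psma, Psmb, Psmc or Psmd followed by a number, leaving out Psmb8, Psmb9 and Psmb10, which encode the interferon-inducible subunits of the immunoproteasome. The array carried 36 of them among 18194 genes with a probe set of 1 symbol, and the brightest probe set of each gene by mean over the 6 arrays was used. RNA was measured in luminal mammary epithelial cells (MECs) sorted as YFP+ Lin−CD24+CD29lo cells from the thoracic and inguinal glands of adult virgin female mice of mixed B6/129/FVB background. The Runx1-null group held 3 MMTV-Cre;Runx1L/L;R26Y mice and the Runx1-WT group 3 MMTV-Cre;Runx1+/+;R26Y mice, with 1 array per mouse. Both groups carried the MMTV-Cre transgene and R26Y, a reporter that is switched to YFP by Cre, so the sorted cells of either genotype were cells in which Cre had acted. MMTV-Cre acts mainly in luminal MECs and in some basal MECs, and the floxed allele loses exon 4 of Runx1. YFP alone does not show that Runx1 was lost. By qRT-PCR the authors found Runx1 RNA lost in sorted YFP+ MECs of Runx1L/L mice, and significantly reduced in YFP+ luminal progenitors. In YFP+ mature luminal cells of these mice they found it only slightly reduced. The paper proposes that many of those cells might have kept an intact Runx1 allele. The comparison asked which of these genes differed in RNA level between Runx1-null and Runx1-WT luminal MECs.

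The proteasome is the protease that degrades ubiquitin-tagged proteins in the cytosol and the nucleus of every cell. Its 20S core is a barrel with outer rings of alpha subunits, which form the gate, and inner rings of beta subunits, of which Psmb5, Psmb6 and Psmb7 carry the active sites. The 19S particle caps the core: its base holds a ring of ATPases (Psmc genes) that unfold the substrate, and its lid holds the deubiquitinase that removes the ubiquitin chain. Because the subunits are needed together, their genes are known to be co-regulated, and the transcription factor Nfe2l1 raises them when proteasome activity is limiting.

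The luminal keratins Krt8 and Krt18 and the epithelial surface marker Epcam were bright on every array, and the summed intensity of 5 luminal markers was 55546 to 59073 in the Runx1-WT mice and 56365 to 63750 in the Runx1-null mice. Leukocyte markers were also present, with a sum over 7 genes of 6856 in Runx1-WT mouse 3 against 889 to 2219 in the other mice. The summed intensity of 5 endothelial markers was lower in every Runx1-null mouse, at 397 to 601 against 636 to 981. Taken singly, Kdr and Tek were lower without overlap, while Pecam1, Cdh5 and Emcn overlapped between the groups. Stromal sums of 6 markers ranged from 11608 to 13641 in the Runx1-WT mice, and from 4581 to 12127 in the Runx1-null mice. Runx1 itself had intensities of 4082, 3855 and 2015 in the Runx1-WT mice and 3473, 4820 and 2277 in the Runx1-null mice on its brightest probe set, whose place relative to exon 4 is not known here, so it does not check the labels. For Gapdh, the log2 intensity at the 3′ end of the transcript minus that at the 5′ end, which grows as RNA is degraded or copied only in part, was 0.46 to 0.47 in the Runx1-WT mice and 0.47 to 0.61 in Runx1-null mice, and was higher in every Runx1-null mouse. The same measure for beta-actin overlapped between the groups, with 0.50 to 0.52 in the Runx1-WT mice and 0.44 to 0.74 in the Runx1-null mice. In bulk samples of this kind, fewer cells of a type and less RNA per cell cannot be told apart.

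The estimated RNA differences of the tested constitutive proteasome genes between Runx1-null and Runx1-WT luminal MECs were at most 1.14-fold, and none passed the test. Intensities below the pooled 20th percentile (19.335) were raised to it, log2 was taken, and the 12152 genes with a mean intensity of at least 73.5 were tested with limma, which included 34 of the 36 proteasome genes. Every tested member lay within 0.2 of 0 on the log2 scale (Runx1-null minus Runx1-WT). Limma called 0 of the 34 at an adjusted p under 0.05, and the rule called 0% of all tested genes. At an unadjusted p under 0.05 the count was 0 of 34, where 1.93% of all tested genes passed, and the methods' t-test also gave 0 of 34, with 335 of all genes. The adjusted p of each member was 0.9997. In 0 of 34 members did the values of the 3 Runx1-null mice lie entirely above or below those of the 3 Runx1-WT mice, against 5.55% of all tested genes.

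**Figure D1:**
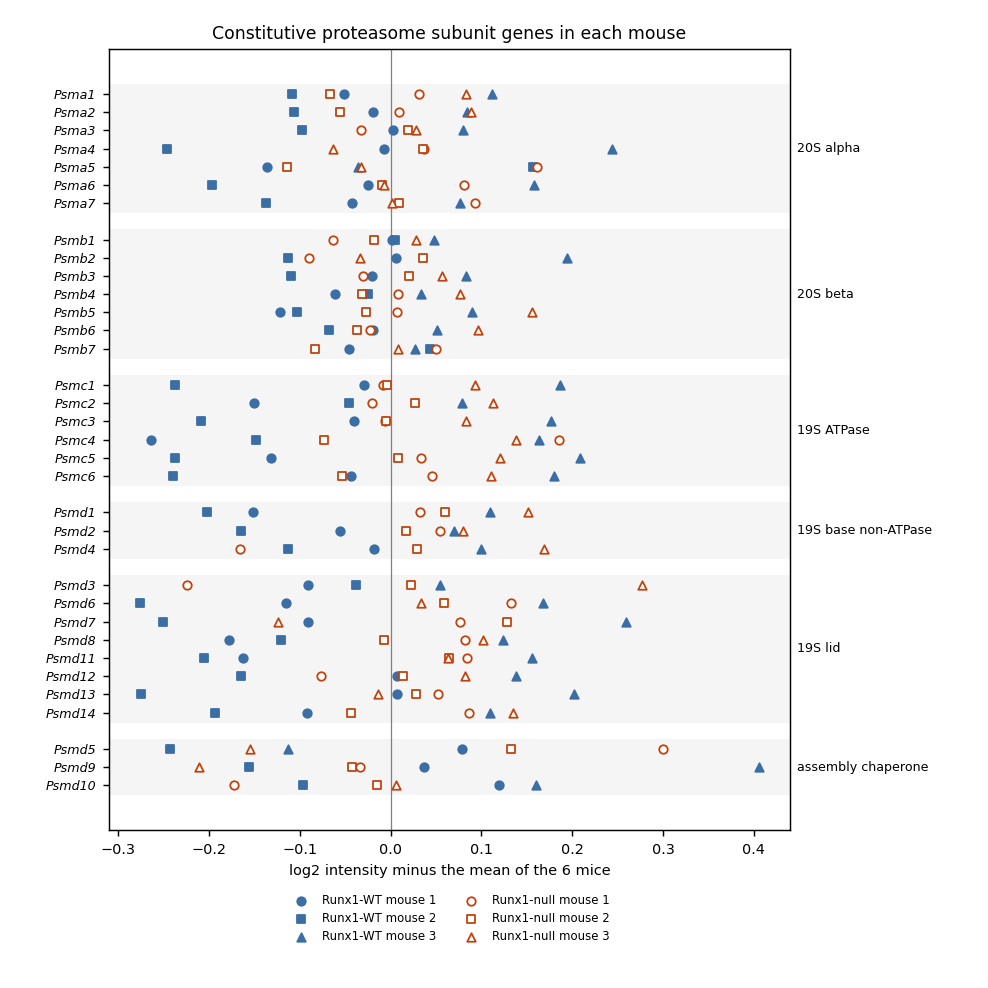
Log2 intensity of each of the 34 tested genes in each mouse, minus that gene's mean over the 6 mice. Rows are genes grouped by role, filled symbols are the 3 Runx1-WT mice and open symbols the 3 Runx1-null mice. Runx1-WT mouse 2 was lowest for 22 of the genes and Runx1-WT mouse 3 highest for 19, with the Runx1-null mice mostly between them.

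The spread of the members between mice was also small. Estimates of 34 of 34 lay within 0.2 of 0, as did 65.7% of all tested genes and 77.3% of the 6274 tested genes at least as bright as Psmd9, the dimmest tested member. The median within-group SD of the members was 0.13 on the log2 scale, against 0.27 over all tested genes and 0.20 over those 6274. That set was bounded by the dimmest member only and was not otherwise matched to the members in intensity. The 95% interval of the difference lay within 0.5 of 0, a 1.41-fold change in either direction, for 32 of 34 members and for 25.6% of all tested genes. It lay within 0.25, a 1.19-fold change, for 7 of 34 and for 4.34% of all tested genes. With 3 mice per genotype, a change inside such an interval could not be told from 0.

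**Figure D2:**
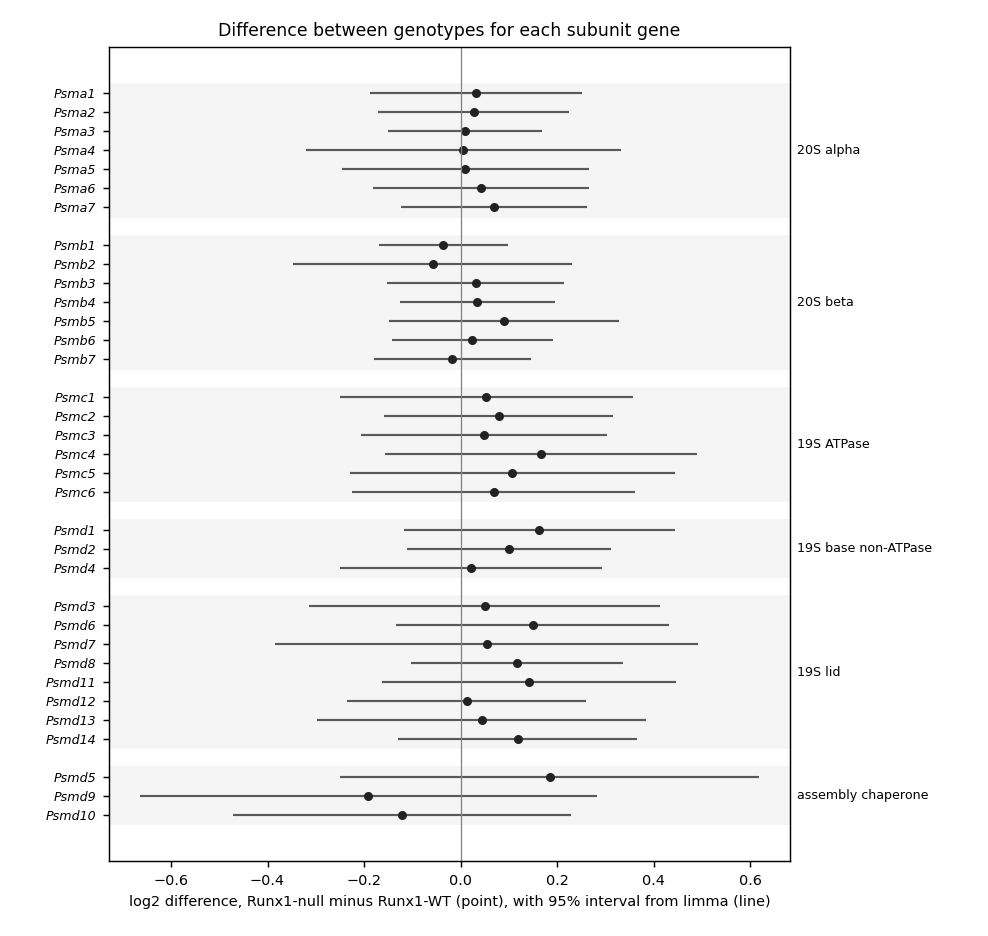
Log2 difference, Runx1-null minus Runx1-WT, of each of the 34 tested genes (point) with its 95% interval from limma (line), grouped by role. All intervals cross 0. The widest is that of the assembly chaperone Psmd9, followed by those of the lid gene Psmd7 and the chaperone Psmd5.

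Although no member passed the test, 29 of the 34 estimates were above 0 and 5 below, with a median of 0.05, whereas 44.6% of all tested genes were above 0 and their median was −0.02. The 5 below 0 were Psmb1, Psmb2, Psmb7, Psmd9 and Psmd10. The size of this lean varied with the mice included, as described after the genes themselves.

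The 7 alpha subunit genes tested, which build the outer rings and the gate of the core, all had estimates just above 0, with a median of 0.03. Psma7 had intensities of 5316, 4978 and 5776 in the Runx1-WT mice and 5842, 5514 and 5483 in the Runx1-null mice. The groups overlapped, since Runx1-WT mouse 3 lay above Runx1-null mice 2 and 3, and the difference was 0.07 (SE 0.08), the highest of the alpha genes. Psma4, the alpha gene with the lowest estimate, measured 3748, 3176 and 4462 in the Runx1-WT mice and 3863, 3861 and 3605 in the Runx1-null mice. Its Runx1-WT values spanned all 3 Runx1-null values, and the difference was 0.01 (SE 0.14). Psma1 gave 4498, 4322 and 5035 against 4761, 4449 and 4936, Psma3 gave 6604, 6160 and 6966 against 6444, 6677 and 6721, and Psma6 gave 7234, 6421 and 8209 against 7786, 7315 and 7322. For these 3 genes Runx1-WT mouse 2 was the lowest array and Runx1-WT mouse 3 the highest. Psma2 and Psma5 differed by 0.03 and 0.01.

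The testis-restricted alpha gene Psma8 was not tested, with intensities of 17.2, 8.33 and 17.9 in the Runx1-WT mice and 27.9, 13.99 and 10.3 in Runx1-null mice. Psmb11, the beta subunit of the thymic cortex, was likewise dim, at 5.86, 15.1 and 0.31 against 6.28, 10.7 and 15.4. All of these values but that of Psma8 in Runx1-null mouse 1 were below the floor of 19.335, so no order was read from them.

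Of the 7 tested beta subunit genes 4 were above 0 and 3 below, with a median of 0.02, and as a group they varied least between mice of 1 genotype (median SD 0.07 on the log2 scale). Psmb5, which carries the chymotrypsin-like activity, measured 3904, 3954 and 4521 in the Runx1-WT mice and 4268, 4167 and 4732 in the Runx1-null mice. Its group means were 4126 ± 343 (SD, n = 3) and 4389 ± 301 (SD, n = 3), and Runx1-WT mouse 3 lay among the Runx1-null mice. The difference of 0.09 (SE 0.10) was the highest of the beta genes (exact permutation test, two-sided, p = 0.4, where 0.1 is the smallest p that 3 mice against 3 allow).

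Psmb6, the caspase-like subunit, measured 5981, 5783 and 6281 in the Runx1-WT mice and 5967, 5907 and 6482 in the Runx1-null mice. Both groups had their highest value in mouse 3 and the groups overlapped, with a difference of 0.02 (SE 0.07). The trypsin-like subunit Psmb7 measured 5750, 6119 and 6049 in the Runx1-WT mice and 6145, 5602 and 5970 in the Runx1-null mice, which held both the lowest and the highest of the 6 values. Its difference was −0.02 (SE 0.07).

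The other beta subunits have no active site of their own in the mature core. Psmb2 had the lowest estimate, −0.06 (SE 0.12), from 2932, 2698 and 3340 in the Runx1-WT mice and 2744, 2992 and 2852 in the Runx1-null mice. Runx1-WT mouse 2 was the lowest of all and Runx1-WT mouse 3 the highest. Psmb1 measured 6808, 6824 and 7029 against 6510, 6714 and 6936, a difference of −0.04 (SE 0.06), and only Runx1-null mouse 3 reached the Runx1-WT range. Psmb3, at 5390, 5067 and 5792 against 5355, 5546 and 5686, and Psmb4, at 5524, 5665 and 5898 against 5797, 5637 and 6074, both differed by 0.03.

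The 6 ATPase genes of the 19S base, whose ring unfolds and threads substrates into the core, all had estimates above 0, with a median of 0.07. Psmc4 had the highest, 0.17 (SE 0.14), from 3578, 3876 and 4811 in the Runx1-WT mice and 4884, 4083 and 4726 in the Runx1-null mice. Runx1-WT mice 1 and 2 lay below all Runx1-null mice and Runx1-WT mouse 3 did not, and leaving out 1 mouse gave 0.08 (without Runx1-WT mouse 1) to 0.29 (without Runx1-WT mouse 3). Psmc3 had the lowest, 0.05 (SE 0.11), from 5396, 4800 and 6272 against 5526, 5531 and 5879. Here too Runx1-WT mice 1 and 2 were lowest and Runx1-WT mouse 3 highest. Psmc2 measured 3447, 3706 and 4043 against 3773, 3899 and 4137, a difference of 0.08 (SE 0.10). Psmc1, Psmc5 and Psmc6 differed by 0.05, 0.11 and 0.07.

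The 3 other genes of the base also had estimates above 0. Psmd1, a large scaffold subunit of the base, measured 3047, 2941 and 3653 in the Runx1-WT mice and 3461, 3529 and 3760 in the Runx1-null mice. Only Runx1-WT mouse 3 fell within the Runx1-null range, and the difference was 0.16 (SE 0.12; exact permutation test, two-sided, p = 0.3). Psmd2, the scaffold that also receives ubiquitin shuttle proteins, differed by 0.10 (SE 0.09). Psmd4, a ubiquitin receptor at the junction of base and lid, measured 4280, 4008 and 4643 against 3865, 4421 and 4875. The lowest and the highest of the 6 values were both of Runx1-null mice, and the difference was 0.02 (SE 0.11).

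All 8 lid genes had estimates above 0, with a median of 0.09. Psmd6, a structural subunit of the lid, had the highest, 0.15 (SE 0.12), from 4948, 4426 and 6021 in the Runx1-WT mice and 5877, 5581 and 5487 in the Runx1-null mice. Leaving out 1 mouse gave 0.05 (without Runx1-WT mouse 2) to 0.27 (without Runx1-WT mouse 3). The 3 Runx1-null mice lay between Runx1-WT mice 1 and 2 on 1 side and Runx1-WT mouse 3 on the other. Psmd12 had the lowest, 0.01 (SE 0.10), from 4528, 4019 and 4960 against 4273, 4550 and 4771. Its Runx1-WT values spanned those of the Runx1-null mice. Psmd11, which clamps the lid to the core, measured 2720, 2640 and 3391 against 3226, 3184 and 3181, a difference of 0.14 (SE 0.13), and the SD of the intensities was 25.3 (n = 3) in Runx1-null and 412 (n = 3) in Runx1-WT mice. Psmd7, the partner of the lid deubiquitinase, measured 1406, 1258 and 1792 against 1578, 1636 and 1374, a difference of 0.05 (SE 0.19). Psmd14, the deubiquitinase itself, differed by 0.12 (SE 0.10), and Psmd3, Psmd8 and Psmd13 by 0.05, 0.12 and 0.04.

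Psmd5, Psmd9 and Psmd10 encode chaperones that help to assemble the base and leave before the particle is finished, and these 3 genes had the least uniform estimates. Psmd5 had the highest estimate of all members, 0.19 (SE 0.18), from 1505, 1204 and 1318 in the Runx1-WT mice and 1754, 1562 and 1280 in the Runx1-null mice. Runx1-null mice 1 and 2 were the 2 highest and Runx1-null mouse 3 lay within the Runx1-WT range, and leaving out 1 mouse gave 0.08 (without Runx1-null mouse 1) to 0.31 (without Runx1-null mouse 3). Psmd9 had the lowest, −0.19 (SE 0.20), from 966, 846 and 1248 against 921, 915 and 814. On this probe set the single value of 1248 in Runx1-WT mouse 3 set most of that difference, since it was −0.04 without that mouse. The dimmer probe sets of Psmd9 were also below 0, at −0.43 and −0.26. On the first of these Runx1-WT mouse 3 was instead the lowest Runx1-WT mouse, with 860, 620 and 445 against 600, 552 and 291. Psmd10, also called gankyrin, measured 1841, 1586 and 1895 against 1504, 1678 and 1702, a difference of −0.12 (SE 0.15), with overlapping groups.

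The Runx1-WT mice differed from each other more than the genotypes did. The mean log2 intensity over the 34 genes was 11.90, 11.82 and 12.08 in the Runx1-WT mice and 11.98, 11.96 and 12.01 in Runx1-null mice. All 3 Runx1-null mice thus lay between Runx1-WT mice 1 and 2 below and Runx1-WT mouse 3 above, and the difference of the means, 0.05, was smaller than the Runx1-WT SD of 0.13 (n = 3). Runx1-WT mouse 2 was the lowest array for 22 of 34 genes and Runx1-WT mouse 1 for 6, while Runx1-WT mouse 3 was the highest for 19, Runx1-null mouse 3 for 10 and Runx1-null mouse 1 for 5. Runx1-WT mouse 3 was also the mouse with the leukocyte sum of 6856, and the leukocyte gene Ptprc measured 205 there against 18.3 to 47.4 in the others. The part of leukocyte RNA in its proteasome values was not tested.

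The labels carry animal numbers that fall into a lower range, with mice 1 and 2 of both genotypes, and an upper range, with mouse 3 of both. Within the lower range 29 of 34 members were above 0, with a median of 0.11, where 51.7% of all tested genes were above 0 with a median of 0.01. In that range both Runx1-null mice lay above both Runx1-WT mice for 18 members, against 26.1% of all tested genes, and below them for 1, Psmb1, against 24.5% of all tested genes. In the upper range, with 1 mouse of each genotype and no test, 11 members were above 0 (32.4%, against 40.7% of all tested genes) and 23 below, and the median was −0.04, against −0.09 over all tested genes. The share above 0 thus exceeded that of all genes in the lower range only, while the median was above that of all genes in both, and the difference between the ranges was not tested. Markers of other cell types also differed between the ranges. The summed intensity of 6 basal and myoepithelial markers was 4855 and 3740 in Runx1-WT mice 1 and 2, where Runx1-null mice 1 and 2 had 9805 and 10328. It was 7263 in Runx1-WT mouse 3 and 3534 in Runx1-null mouse 3. In the lower range Krt14, Trp63 and Oxtr were higher in both Runx1-null mice, while Krt5, Acta2 and Myh11 overlapped. Oxtr measured 517 and 386 in Runx1-WT mice 1 and 2, against 4268 and 2395 in Runx1-null mice 1 and 2. The sum of 4 luminal progenitor markers was 21211, 16289 and 22778 in Runx1-WT mice 1 to 3, with 21541, 23674 and 23902 in the Runx1-null mice. For 4 mature luminal markers it was 24295, 24078 and 15406, with 13104, 19012 and 19326 in the Runx1-null mice. The part of these cell types in the proteasome values was not tested.

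**Figure D3:**
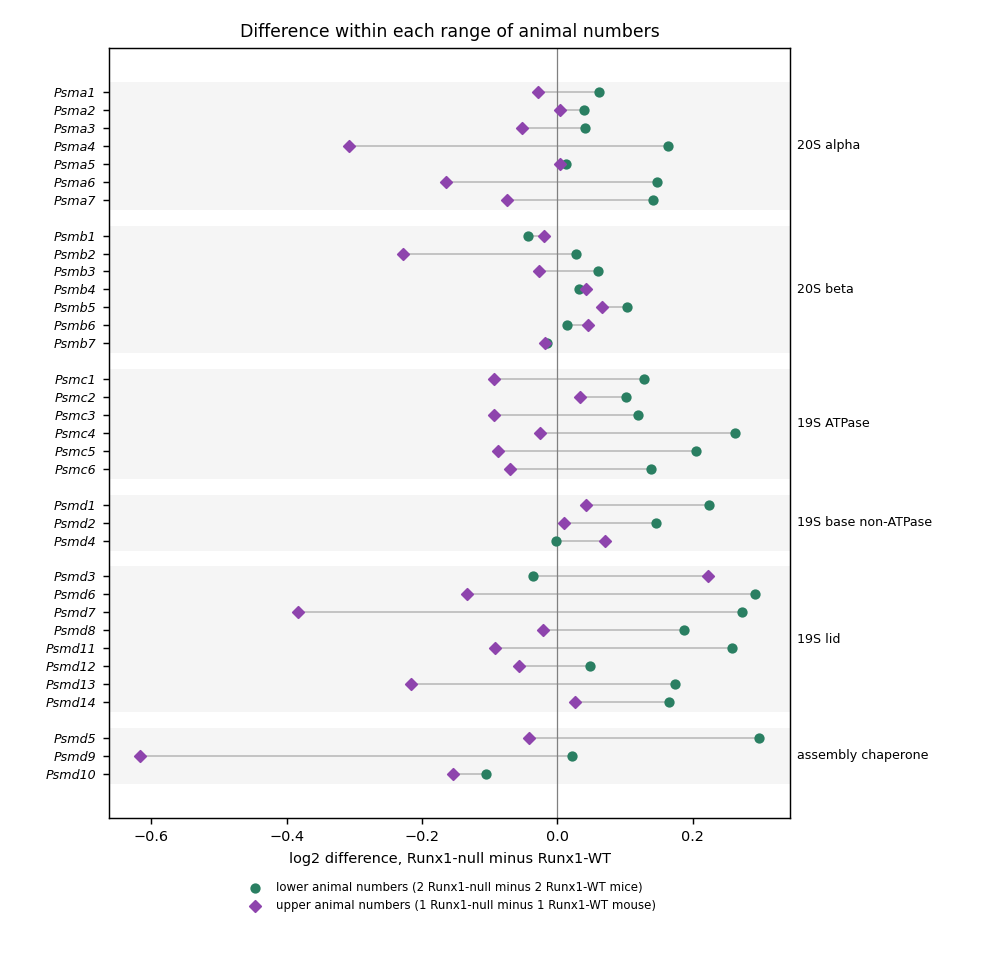
Log2 difference, Runx1-null minus Runx1-WT, of each tested gene within the lower range of animal numbers (circles, 2 mice against 2) and within the upper range (diamonds, 1 mouse against 1), joined by a line for each gene. Most circles lie right of 0 (29 of 34) and most diamonds left of it (23 of 34), with Psmd9 farthest left.

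Leaving out 1 mouse moved these counts in both directions. Without Runx1-WT mouse 2 the count above 0 was 16 of 34 (47.1%) and the median −0.01, where 36.9% of all tested genes were above 0 with a median of −0.06. Psmd9 and Psmd10 were then lower with no overlap, as were 9.87% of all tested genes. Without Runx1-WT mouse 3 the count above 0 was 29 of 34 and the median rose to 0.13. The groups then did not overlap for 14 members, all of them higher in the Runx1-null mice, as for 12.4% of all tested genes. Of these 14, 11 were among the 17 genes of the 19S particle (5 of the 6 ATPases among them) and 3 among the 14 tested genes of the 20S core. Without Runx1-null mouse 3, Psmd5 was higher with no overlap, as were 9.69% of all tested genes, and Psmb1 lower, as were 10.2%. The median of the members was above that of all tested genes whichever mouse was left out, by 0.03 to 0.14. No tested gene, member or not, passed the adjusted threshold in any of these fits.

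The 19S genes varied more between mice than the 20S genes. The median within-group SD was 0.14 on the log2 scale for the 17 genes of the 19S particle and 0.08 for the 14 of the core, 17 and 11 of which had estimates above 0, with medians of 0.08 and 0.03. The mean log2 intensity of the 19S genes minus that of the 20S genes was −0.52, −0.57 and −0.41 in the Runx1-WT mice and −0.46, −0.43 and −0.41 in Runx1-null mice. The balance of the particles was therefore lowest in Runx1-WT mice 1 and 2 and overlapped between the genotypes through Runx1-WT mouse 3.

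Across the 6 arrays most members varied together. Pearson's r of a member with the mean of the other 33 tested members had a median of 0.85, was above 0.8 for 20 of 34 and below 0 for 1. These values describe 6 arrays that also share their normalization. The ATPase genes Psmc5 (r = 0.99), Psmc3 (0.98), Psmc1 (0.97) and Psmc6 (0.97) followed the others most closely. Psma5 (−0.33), Psmb7 (0.03), Psmd5 (0.08), Psmb1 (0.29) and Psmd3 (0.30) followed them least. The whole range over the 6 arrays was 0.13 on the log2 scale for Psmb7 and 0.11 for Psmb1, and it was 0.14 for Psmb4, whose r was 0.66.

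Promoter windows of RefSeq (GRCm38.p6), from 250 bases before to 50 bases after the start of the gene, were found for 29 of the 36 members, with Psma8, Psmb1, Psmb2, Psmb7, Psmc3, Psmd3 and Psmd7 not matched. They were searched on both strands for 6 motifs, and a match is a run of letters, not a bound site. The motif CCGGAAG, a core of ETS family sites, stood in 10 of 29 members (34.5%) and in 9.93% of all 27025 genes with a window. These 10 were 9 of the 14 matched 19S genes (Psmc1, Psmc2, Psmc6, Psmd2, Psmd4, Psmd6, Psmd11, Psmd12 and Psmd13) and, in the core, only Psma6 of 12 genes. In the 19S genes the matches began between 125 and 6 bases before the start. The NF-Y motif CCAAT stood in 12 of 29 members (41.4%), near its share of 41.1% among all genes. These were 7 of 12 core genes (58.3%), 4 of 14 19S genes (28.6%) and the chaperone gene Psmd10. The windows were not matched on base composition, and the split between core and 19S genes was seen in these counts and was not tested.

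**Figure D4:**
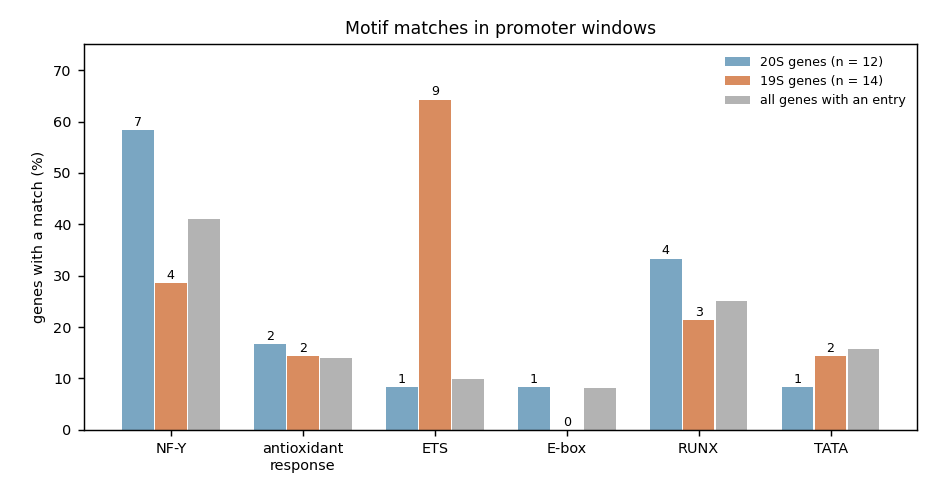
Share of genes (%) whose promoter window holds each of 6 motifs on either strand, for the matched 20S genes (n = 12), the matched 19S genes (n = 14) and all genes with a window. Numbers above the bars are gene counts, and the ETS motif has the widest gap, with 9 of 14 19S genes, 1 of 12 20S genes and 9.93% of all genes.

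The windows of 3 of the 19S genes are given to show the ETS match close to the start, with Psmd6 at chr14:14120896-14121195 (minus strand), Psmd11 at chr11:80428365-80428664 (plus strand) and Psmd2 at chr16:20651402-20651701 (plus strand). Capitals mark matches of the searched motifs, which are CCGGAAG in Psmd6, its reverse complement CTTCCGG in Psmd11 and Psmd2, a TATAAA in Psmd6 and a TGTGGT in Psmd2.
Psmd6: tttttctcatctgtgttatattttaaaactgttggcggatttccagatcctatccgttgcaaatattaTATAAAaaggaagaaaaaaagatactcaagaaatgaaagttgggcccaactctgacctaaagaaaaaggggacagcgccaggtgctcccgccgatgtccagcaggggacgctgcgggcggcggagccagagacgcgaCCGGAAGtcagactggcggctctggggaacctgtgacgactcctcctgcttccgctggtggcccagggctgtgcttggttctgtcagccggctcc
Psmd11: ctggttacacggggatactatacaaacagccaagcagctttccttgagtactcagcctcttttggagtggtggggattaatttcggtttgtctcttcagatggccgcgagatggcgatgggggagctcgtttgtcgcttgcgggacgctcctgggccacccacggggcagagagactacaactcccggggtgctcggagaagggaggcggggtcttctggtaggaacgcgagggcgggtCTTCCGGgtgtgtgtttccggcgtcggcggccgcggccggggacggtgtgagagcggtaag
Psmd2: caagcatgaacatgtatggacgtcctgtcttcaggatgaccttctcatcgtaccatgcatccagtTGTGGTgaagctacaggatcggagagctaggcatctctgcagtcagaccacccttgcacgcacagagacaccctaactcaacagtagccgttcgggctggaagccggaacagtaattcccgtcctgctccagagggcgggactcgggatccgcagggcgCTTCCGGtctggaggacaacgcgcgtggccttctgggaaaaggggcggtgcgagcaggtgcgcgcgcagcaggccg

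The antioxidant response motif TGACNNNGC, of the kind that Nfe2l1 and its relatives bind, stood in 5 of 29 members (17.2%), which were Psmb5, Psmb6, Psmc6, Psmd9 and Psmd12, and in 14% of all genes. The RUNX motif, searched as TGTGGT and TGCGGT, stood in 7 of 29 members (24.1%) and in 25% of all genes. The E-box CACGTG stood in 2 members (6.9%, against 8.09% of all genes) and TATAAA in 3 (10.3%, against 15.7%). For these motifs the share among the members was near that among all genes. The windows of the catalytic genes Psmb5, at chr14:54617946-54618245 (minus strand), and Psmb6, at chr11:70525107-70525406 (plus strand), are given because both hold the antioxidant response motif shortly before the start. Capitals mark it in both, and a TGTGGT in Psmb5.
Psmb5: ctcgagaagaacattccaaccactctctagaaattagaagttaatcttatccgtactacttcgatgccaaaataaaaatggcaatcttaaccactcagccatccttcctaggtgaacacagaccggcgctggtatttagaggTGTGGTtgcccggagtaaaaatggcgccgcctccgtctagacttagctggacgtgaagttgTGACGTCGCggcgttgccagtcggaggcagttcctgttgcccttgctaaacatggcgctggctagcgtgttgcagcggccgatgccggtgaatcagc
Psmb6: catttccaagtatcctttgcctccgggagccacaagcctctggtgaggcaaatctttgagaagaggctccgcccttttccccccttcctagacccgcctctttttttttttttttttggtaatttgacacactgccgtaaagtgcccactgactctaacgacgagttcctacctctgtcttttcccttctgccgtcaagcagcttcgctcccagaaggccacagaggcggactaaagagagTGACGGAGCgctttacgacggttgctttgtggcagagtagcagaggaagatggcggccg

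The immunoproteasome subunits, which interferon induces and which take the place of Psmb5, Psmb6 and Psmb7 in the core, had estimates farther below 0 than any tested member. Psmb9, which replaces Psmb6, measured 2078, 2166 and 1726 in the Runx1-WT mice and 1147, 1476 and 1160 in the Runx1-null mice. The groups did not overlap, and the difference was −0.66 (SE 0.18; limma, unadjusted p = 0.0074, adjusted p = 0.9997). Psmb8, which replaces Psmb5, measured 2546, 2636 and 2130 against 1558, 2119 and 2003, again without overlap, with a difference of −0.37 (SE 0.17; limma, adjusted p = 0.9997). Psmb10, which replaces Psmb7, measured 2722, 2645 and 2792 against 1826, 2666 and 2172, with overlap and a difference of −0.31 (SE 0.16).

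The log2 ratio of each pair was then compared within arrays. Psmb9 over Psmb6 was −1.53, −1.42 and −1.86 in the Runx1-WT mice and −2.38, −2.001 and −2.48 in Runx1-null mice, which were all lower. The difference was −0.69 (SE 0.20; two-sided exact permutation test, p = 0.1, which is the smallest possible here, and 0.3 after Benjamini-Hochberg adjustment over the 3 pairs), and it was −0.72 among the 4 mice with lower animal numbers and −0.62 between the other 2. Psmb8 over Psmb5 differed by −0.46 (SE 0.21; exact permutation test, p = 0.2, adjusted 0.3) and Psmb10 over Psmb7 by −0.29 (SE 0.20; exact permutation test, p = 0.4, adjusted 0.4), both with overlapping groups. No pair passed the adjusted threshold, which this design cannot reach. Of the Runx1-WT mice, mouse 3, with the highest leukocyte sum, had the lowest Psmb8 and Psmb9 and the highest Psmb10, and the part of leukocyte RNA in these values was not tested.

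**Figure D5:**
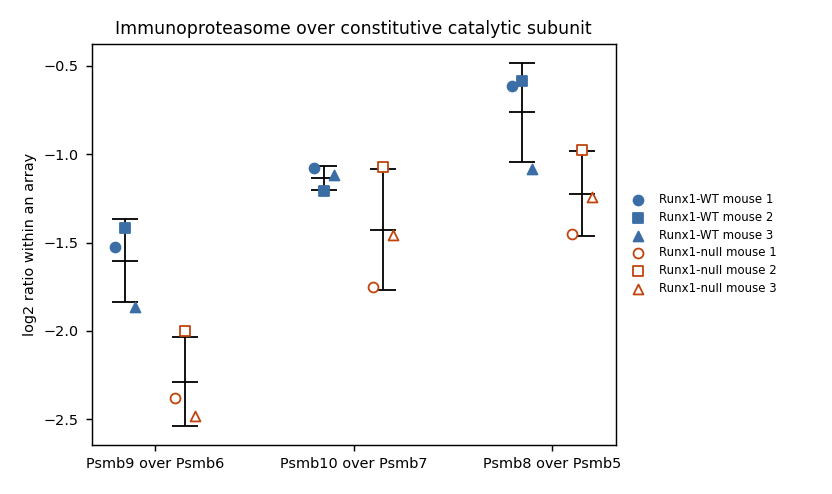
Log2 ratio within an array of each immunoproteasome subunit gene over its constitutive counterpart, for 3 Runx1-WT (filled) and 3 Runx1-null mice (open), with the mean and SD of each group as bars. The groups are apart for Psmb9 over Psmb6, at −1.86 or more in the Runx1-WT mice and −2.001 or less in Runx1-null mice, and overlap for the other pairs.

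Other genes around the proteasome gave no call either, in lists chosen with earlier results of these data known. Of the 4 tested activator and inhibitor genes (Psme1, Psme3, Psme4 and Psmf1), 2 were above 0 and 2 below, with a median of −0.02. Of 7 further proteasome-related genes (Psmg1, Psmg2, Psmg3, Psmg4, Pomp, Txnl1 and Akirin2) 3 were above 0 and 4 below, with a median of −0.01. Pomp, the maturation factor of the core, measured 6272, 6138 and 6245 against 6046, 5982 and 6489. Of 9 receptors and deubiquitinases that work with the 19S particle, 7 were above 0, with a median of 0.04. Zfand2a, which encodes an arsenite-inducible proteasome partner, had the largest difference of these lists, 0.46 (SE 0.27), from 1032, 1630 and 1098 against 1422, 1474 and 2310, with overlapping groups. Of 6 ubiquitin and E1 genes listed, only Uba6, an activating enzyme, had a probe set of 1 symbol, and it differed by 0.01 (SE 0.27). Of 10 genes of the Nfe2l1 pathway 6 were above 0 and 4 below, with a median of 0.03, and Nfe2l1 itself differed by −0.03 (SE 0.08). Besides Psmb8 and Psmb9, none of these genes had groups that did not overlap.

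The array carries further probe sets for many members, 74 in all. Beside the 34 used in the test, 32 passed the intensity filter, in 17 genes, and 18 of these had the sign of the one used. Of the 14 with a mean intensity of at least 1000, 12 had the same sign, and the exceptions were the second probe sets of Psmb3 (−0.02) and Psmd4 (−0.05). The groups overlapped on all 32. The lowest estimates came from dim ones, those of Psmc2 (−0.45, at a mean intensity of 112) and Psmd9 (−0.43, at 561). Signs differed between the probe sets of Psma1, Psma3, Psma6, Psmb1, Psmb3, Psmc2, Psmd4, Psmd7 and Psmd11, all of which differed by 0.14 or less on the brightest.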

How the data were processed

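RNA of sorted luminal MECs of 6 mice (3 per genotype) had been amplified and hybridized to Affymetrix 3′ expression arrays for mouse transcripts. The authors normalized the arrays with dChip, and the version and model are not given in the sources used here. The deposited values are linear intensities of 45101 probe sets. A platform annotation gave 1 gene symbol for 34958 probe sets, several for 932 and none for 9211, and only the first were used. Littermates were used according to the methods, but the sources used here do not link these 6 mice to litters.

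Intensities were floored at 19.335, the 20th percentile over all arrays, before log2 transformation. Genes whose brightest probe set had a mean of at least 73.5 (the 40th percentile) were tested with limma 3.58.1 in R 4.3.3 (lmFit and eBayes with trend, Benjamini-Hochberg over 12152 genes, adjusted p under 0.05). Ratios and single genes were compared by exact permutation tests over mice. Precision is limited by the number of arrays. The code was tested on simulated data.

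Every mouse's values are given for catalytic subunits, the highest and lowest estimate of each role, tissue-restricted members, members whose probe sets differ in sign, Psmb8, Psmb9, Psmb10 and genes without overlap, and others were added after seeing their values. The members and lists were chosen with earlier results of these data known. Alternatives were other filters, floors, normalizations, probe set rules and variance models, the animal number range as a block and within each range, leaving out each mouse, a threshold of 0.1 and the methods' t-test.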

Additional observations from a re-analysis of the deposited data

How the results depend on the processing

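No tested gene, member or not, was called under any alternative fit. Of the values compared, 254 of single genes and 87 summary values kept their direction and side of the threshold. Another 26 and 2 reversed, and 9 summary values moved. Other filters, other variance models, the t-test and the block could not change the estimate of a single gene, so those values were kept by construction. Leaving out the floor or probe sets with an x or s suffix left these estimates unchanged too. The count of members without overlap was 1 after quantile normalization and 1 after median scaling (both Psmd5, higher, as were 2.84% and 2.3% of all tested genes), 1 with the mean of all probe sets of a gene (Psmd9, lower, as were 3.69%) and 19 within the lower range of animal numbers (50.5% of all tested genes in either direction). Within the upper range 11 members were above 0 and their median was −0.035. Leaving out 1 mouse gave 16 to 29 members above 0, medians of −0.0091 to 0.13 and 0 to 14 members without overlap. The lowest count above 0 and the lowest median came without Runx1-WT mouse 2, and the highest median and the highest count without overlap came without Runx1-WT mouse 3. Dropping Runx1-WT mouse 1 gave a count without overlap of 0, where 7.92% of all tested genes did not overlap in either direction. Dropping Runx1-null mouse 1 or 2 also gave 0, where the shares of all tested genes were 11% and 12%. Quantile normalization and median scaling moved the median of all tested genes from −0.02 to 0.02 and 0.07, and that of the members from 0.05 to 0.06 and 0.14.

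Signs of single genes turned, including those with the highest and the lowest estimate, Psmd5 and Psmd9. Median scaling gave 0.033 for Psmb2 and 0.074 for Psmb7. The lower range gave 0.027 for Psmb2, −0.0028 for Psmd4 and 0.022 for Psmd9. The upper range gave −0.31 for Psma4, −0.075 for Psma7, −0.093 for Psmc3, −0.026 for Psmc4, −0.056 for Psmd12, −0.0415 for Psmd5 and −0.13 for Psmd6. The mean of all probe sets gave −0.0013 for Psmd4. Leaving out each mouse gave ranges of −0.12 to 0.13 for Psma4, −0.13 to 0.025 for Psmb2, −0.018 to 0.056 for Psmb6, −0.046 to 0.021 for Psmb7, −0.044 to 0.15 for Psmc3, −0.066 to 0.086 for Psmd12 and −0.058 to 0.11 for Psmd4, and ranges without a change of sign of 0.02 to 0.13 for Psma7, 0.03 to 0.16 for Psmb5, 0.10 to 0.26 for Psmd1 and −0.32 to −0.04 for Psmd9. The cause was not tested. No paired analysis was possible because the labels give the mice of the 2 genotypes no shared replicate numbers. With the animal number range added to the fit as a block, no tested gene was called, as in the main fit. Each range held as many Runx1-null as Runx1-WT mice, so the block could not change any estimate. Signal over background limits only Psma8 and Psmb11.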

Other observations

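Psma5 was the 1 member whose brightest probe set ran against the others over the 6 arrays (r = −0.33), and its second probe set, examined after these values were seen, did not. That one measured 5055, 4403 and 5427 in the Runx1-WT mice and 5026, 4971 and 4887 in the Runx1-null mice, lowest in Runx1-WT mouse 2 as for most members, and followed the mean of the other members with r = 0.86. The brightest one measured 5230, 6408 and 5603 against 6427, 5309 and 5618. Psmb1, by contrast, followed the others weakly on both of its bright probe sets (r = 0.29 and 0.14). The transcripts that each probe set reads are not known here.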
